A study of Mus musculus with 6 samples.

Results

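The genes of potassium channel subunits, taken as the rows of the deposited table whose gene name begins with Kcn and a lower-case letter, leaving out the noncoding RNA Kcnq1ot1, came to 98 of 55401 genes. Of these, 94 carry the name of a protein and 4 are antisense RNAs of a channel gene. Total RNA was sequenced from bone marrow cells from 6 mice, all of them secondary transplant recipients carrying HoxA9/Meis1 leukaemia. HoxA9 and Meis1 are homeobox genes that act together in leukaemia. The Lym group (mice 62, 63 and 87) is labelled as lymphoid cells and the Lin- group (mice 56, 57 and 91) as progenitor cells that are Lin- and cKit+. Per the design text both are leukaemic stem cells, and each mouse had received cells of the kind later taken from it. The leukaemia is common to both groups, and neither is healthy marrow. The labels give no strain, age or sex, no donor of each mouse and no sorting gate beyond these names.

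Potassium channels let potassium ions leave the cell along their gradient and so hold the membrane voltage negative. In blood cells this voltage sets the drive for calcium to enter through store-operated channels. The pore is formed by voltage-gated, calcium-gated, inward rectifier or background (K2P) subunits. Silent voltage-gated subunits make no working channel alone and join pores of the Kcnb type, while auxiliary subunits (Kcnab, Kcne, Kcnip and Kcnmb) change gating or transport to the membrane. Kcna3 and Kcnn4 are the best known channels of lymphocytes, where they carry the voltage-gated and the calcium-gated potassium current.

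The bases upstream of annotated starts are shown for Kcnn4, Kcna3, Kcnip3 and Kcnj2, 4 of the 5 expressed members whose group ranges were apart, as sequence context for the values that follow. The other is Kcng1. RefSeq start sites of GRCm38.p6 were used, with 250 bases before each start, and gene counts do not show which start was in use. Capitals mark exact matches, on either strand, to the Runx core TGTGGT, the Meis core TGACAG or the E box CAGCTG. The PU.1 core GAGGAAGT was also searched and matched none of these windows. Over all 32851 annotated promoters, windows of the same length held the Runx core in 14.1%, the Meis core in 15.9%, the E box in 13.0% and the PU.1 core in 2.44%. A match is a description of the letters and not evidence of binding.
Kcnn4, chr7:24370013-24370262, plus strand: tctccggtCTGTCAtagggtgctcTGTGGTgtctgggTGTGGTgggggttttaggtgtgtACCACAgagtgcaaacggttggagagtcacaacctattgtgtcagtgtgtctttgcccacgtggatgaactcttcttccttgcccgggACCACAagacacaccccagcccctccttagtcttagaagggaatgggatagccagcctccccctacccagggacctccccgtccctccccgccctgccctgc
Kcna3, chr3:107035912-107036161, plus strand: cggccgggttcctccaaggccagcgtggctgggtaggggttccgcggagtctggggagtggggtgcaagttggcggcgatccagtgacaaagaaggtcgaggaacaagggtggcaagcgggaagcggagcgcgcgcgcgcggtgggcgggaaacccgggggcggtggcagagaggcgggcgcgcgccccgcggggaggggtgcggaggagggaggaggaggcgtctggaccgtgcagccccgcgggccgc
Kcnip3, outermost start, chr2:127522095-127522344, minus strand: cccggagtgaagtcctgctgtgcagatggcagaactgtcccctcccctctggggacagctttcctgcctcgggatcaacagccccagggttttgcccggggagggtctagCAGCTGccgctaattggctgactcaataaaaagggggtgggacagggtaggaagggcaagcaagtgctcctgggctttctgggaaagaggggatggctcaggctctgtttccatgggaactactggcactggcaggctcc
Kcnip3, innermost start, chr2:127482500-127482749, minus strand: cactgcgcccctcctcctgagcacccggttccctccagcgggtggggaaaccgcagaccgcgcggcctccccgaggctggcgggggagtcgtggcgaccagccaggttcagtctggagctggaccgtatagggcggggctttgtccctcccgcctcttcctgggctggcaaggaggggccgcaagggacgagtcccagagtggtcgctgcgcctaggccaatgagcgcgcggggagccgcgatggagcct
Kcnj2, chr11:111065914-111066163, plus strand: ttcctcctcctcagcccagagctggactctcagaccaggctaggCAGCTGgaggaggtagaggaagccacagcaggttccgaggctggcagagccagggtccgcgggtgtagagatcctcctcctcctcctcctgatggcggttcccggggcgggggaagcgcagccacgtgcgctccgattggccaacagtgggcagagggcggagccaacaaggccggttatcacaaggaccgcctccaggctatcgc
The Kcnn4 window held 4 Runx cores and 1 Meis core, and 10 of the 32851 windows (0.0304%) held 4 or more Runx cores. That threshold was taken from the Kcnn4 window itself, so the share is a description and not a test. The Kcna3 window was the richest in CpG of those shown, with 31 CpG sites against a median of 6 over all windows. Kcnip3 has 3 annotated starts, of which the outermost and innermost are shown. The outermost window held 4 CpG sites and the innermost 23. The outermost Kcnip3 window and the Kcnj2 window each held 1 E box.

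Reads assigned to genes came to between 18537700 and 22634286 per library. The unit below is the normalized count, gene reads divided by 1 size factor per library, and 3 reads equal a normalized count of 2.64 to 3.36, counting error only. The Lym library of mouse 87 resembled the Lin- libraries more than the other Lym libraries: across tested genes its Pearson correlation was 0.965 to 0.979 with Lin- libraries and 0.927 and 0.948 with Lym mice 62 and 63. Lym mouse 63 also correlated slightly more with Lin- mouse 57 (0.961) than with Lym mouse 62 (0.958). Its correlations with Lin- mice 56 and 91 were lower, at 0.947 and 0.944. Values are therefore given by mouse, and differences also without mouse 87. That mouse was singled out from these same data, so p-values without it are descriptive and carry no independent weight. The progenitor markers Kit and Cd34 and the general leukocyte gene Ptprc were present in all 6 libraries. Of the B-lineage markers, Pax5, at most 0.953, and Cd79a, at most 4.48, were near or under the floor in every library of both groups. Others were not: Ebf1, Vpreb1 and Igll1 reached 59.4, 63.9 and 44.9 in Lym mouse 62, against at most 1.76, 6.16 and 1.76 in Lin-. In Lym mice 63 and 87 these genes stayed at or under 14.3. The early lymphoid marker Il7r reached 424 in Lym mouse 62, 82.8 in mouse 63 and 14.3 in mouse 87, against at most 4.13 in Lin-. In each list of 3 values against 3, the Lym mice stand in the order 62, 63, 87 and the Lin- mice in the order 56, 57, 91. Differences are Lym minus Lin- on the log2(normalized count + 2) scale with their standard error (SE). Their p-values are from limma, adjusted by Benjamini-Hochberg over all 14273 genes that reached 10 normalized counts in 3 or more libraries. The labels do not say whether mice of a group share a donor, so p-values measure the spread between these mice only. In bulk RNA, fewer cells of a type and less RNA per cell cannot be told apart.

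Few of the family were expressed, and 12 of the expressed members are described by name here. By the same rule of 10 normalized counts in 3 or more libraries, 14 of 98 members were expressed, and these held 98.9% of the family's reads. The same 14 were the members with at least 3 reads in every library. A gap separated the upper 11 of them, with mean normalized counts of 95.4 or more, from the other 3, Kcnn1 among them, and from all further members, which had means of 24.5 or less. Below the rule stood 65 members with some reads, of which 37 never exceeded 3 reads in a library, and 19 members had no read in any library. Reads of the 65 fell in Lym libraries alone for 42 members and in Lin- libraries alone for 6. Over all 17331 genes with reads below the rule, 46.1% had reads in Lym libraries alone and 11.1% in Lin- libraries alone. No member below the rule passed 40 reads in a library.

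By class, expression reached 4 of 30 voltage-gated pore genes (Kcna3 and Kcnq5 among them), 2 of 10 silent voltage-gated genes (Kcng1, Kcng2), 2 of 8 ion-gated pore genes (Kcnn4, Kcnn1), 1 of 15 inward rectifier genes (Kcnj2), 2 of 14 K2P genes (Kcnk6, Kcnk12) and 3 of 16 auxiliary genes (Kcnab2, Kcnip3, Kcne3). Of the 8 genes of the ether-a-go-go group (Kcnh) and the 3 of the Shal group (Kcnd) none was expressed, and neither were Kcnma1, the pore of the large-conductance BK channel, or any of its 4 beta subunit genes. The plot of levels per kilobase of exon shows the 12 genes described, with Kcnab2 at the top.

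**Figure D1:**
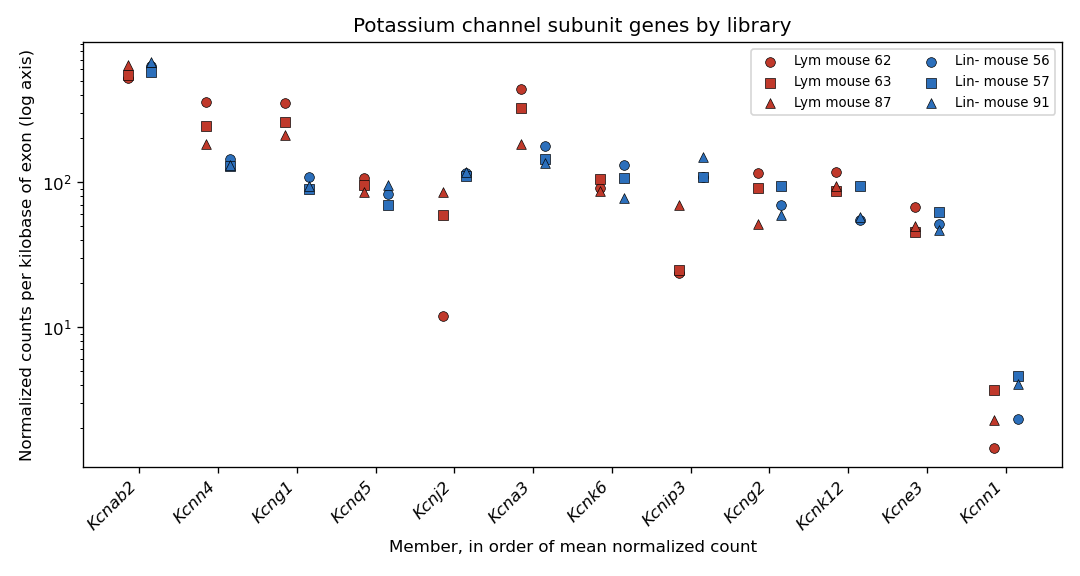
Normalized counts per kilobase of exon (log axis) of 12 of the 14 expressed members in each of the 6 libraries, Lym in red and Lin- in blue, 1 point per mouse. Kcnn1, at the right, lies below all the others in every library.

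Among the 14 expressed members, the lowest Lym value exceeded the highest Lin- value for Kcng1, Kcnn4 and Kcna3, and the reverse held for Kcnip3 and Kcnj2. Ranges were thus apart for 3 members with Lym higher, against 8.49% of all tested genes, and for 2 with Lin- higher, against 7.08% (15.6% in either direction). No member passed an adjusted p of 0.05 in limma, and neither did any other gene (0.0% of 14273), nor any in edgeR or limma-voom on the recovered reads. The same 5 members had an unadjusted limma p under 0.05, 3 of them higher in Lym (5.96% of tested genes) and 2 lower (4.27%), where 10.2% of tested genes did in either direction. With edgeR this held for the same 3 (6.57% of genes) and for Kcnip3 (3.55%), and with limma-voom for the same 3 (5.23%) and the same 2 (4.32%). Without the filter on low values, 9 of 79 members had an unadjusted limma p under 0.05, beside 7.24% of 31604 genes, and 10 had ranges apart, beside 9.72%. Without Lym mouse 87 limma called all 5 at an adjusted p under 0.05, and it then called 5.49% of 13942 genes as higher in Lym and 4.18% as lower. Mouse 87 was left out for its likeness to Lin- in these same data, so these calls are no independent support. DESeq2 on the recovered reads took in every gene with a read, which made 79 members among 31604 genes. Of the 79 it called Kcng1, Kcnn4 and Kcna3 as higher in Lym, beside 0.532% of the 31604 genes. It called Kcnip3 as lower, beside 0.111% (0.642% in either direction). Many members below the expression rule received no adjusted p from this fit, so these shares are not those of expressed genes. The authors' deposited table, also from DESeq2 and with 79 members among 31604 genes, called Kcng1, Kcnn4 and Kcnip3. It called 0.256% of all these genes as higher and 0.0633% as lower in Lym. The median difference over the 14 members was 0.09 on the log2 scale, with 8 of 14 higher in Lym, beside a median of -0.01 and 48.7% higher over all genes tested.

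**Figure D2:**
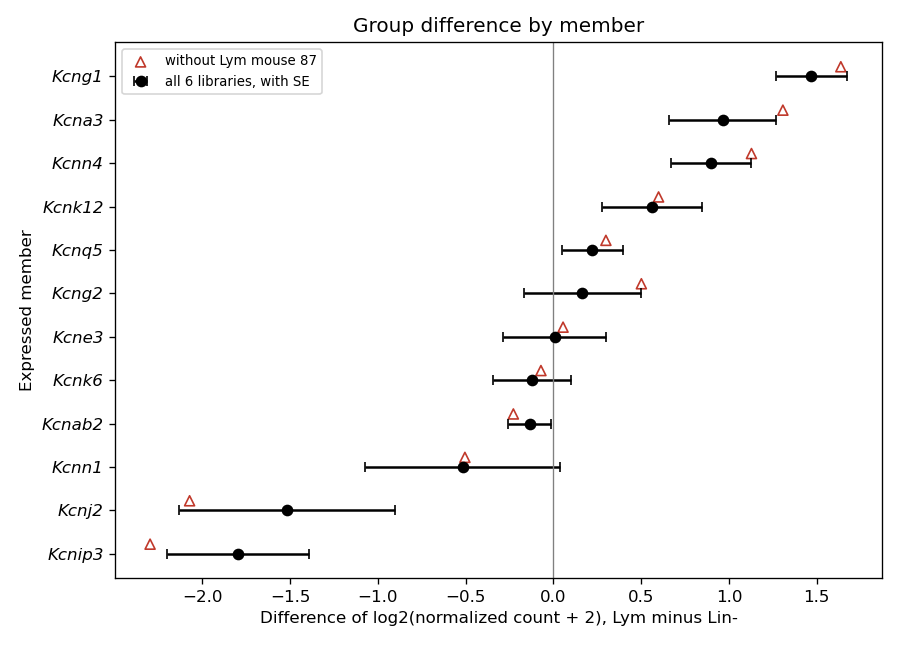
Lym minus Lin- difference of log2(normalized count + 2) for 12 of the 14 expressed members, with all 6 libraries (black, bars are 1 SE) and without Lym mouse 87 (open triangles). Kcng1 lies highest at 1.47 and Kcnip3 lowest at -1.80, and both lie farther from 0 without mouse 87, as do Kcnn4, Kcna3 and Kcnj2.

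Kcng1 (ENSMUSG00000074575.4, Kv6.1), a silent subunit that modifies Kcnb channels, lies on chromosome 2 at 168260117 to 168281736 in GRCm38, on the minus strand. Its normalized counts were 1590, 1164 and 958 (Lym) versus 490.5, 401 and 421 (Lin-). All 3 Lym values, that of mouse 87 included, lay above the highest Lin- value. The ratio of means was 2.83, and the difference was 1.47 ± 0.20 (SE, limma adjusted p = 0.139). It was 1.64 without Lym mouse 87 (limma adjusted p = 0.00241) and stayed between 1.27 and 1.64 when any 1 mouse was left out. DESeq2 on the recovered reads gave an adjusted p of 9.8e-08, and the authors' deposited table a shrunken log2 fold change of 1.29 with an adjusted p of 2.3e-07. The nearest annotated genes on either side, Gm14237 and Gm14262, had at most 1 read in a library.

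Kcnb2, a pore partner of Kcng1, had 3 reads in Lym mouse 63 and none elsewhere. Per kilobase of exon, Kcng1 was at 274 ± 71.6 in Lym and 97.1 ± 10.4 in Lin- (SD, n = 3 each), and Kcnb2 at most at 0.221 in a library. Of its own subfamily, Kcng2, another silent subunit, was expressed with overlapping groups, at 348, 274 and 152 (Lym) versus 209, 279 and 176 (Lin-) (0.16 ± 0.33, limma adjusted p = 0.874, and -0.09 without Lym mouse 62). Kcng3 and Kcng4 had no read.

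Kcnn4 (ENSMUSG00000054342.8, KCa3.1), the intermediate-conductance channel opened by calcium through bound calmodulin, lies on chromosome 7 at 24370263 to 24386690. It was at 1828, 1251 and 937 (Lym) versus 741, 664 and 670.4 (Lin-). The 3 Lin- mice lay close together (692 ± 42.9, SD), while the Lym mice spread widely (1339 ± 452, n = 3 each) and mouse 87 lay nearest to the Lin- range. The difference was 0.90 ± 0.23 (limma adjusted p = 0.420), 1.13 without Lym mouse 87 (adjusted p = 0.00836) and 0.65 without Lym mouse 62 (adjusted p = 0.844). DESeq2 on the recovered reads gave an adjusted p of 0.0122, and the authors' deposited table gave 0.0284. The small-conductance relatives were low or near absent: Kcnn1 was at 6.73, 16.8 and 10.5 (Lym) versus 10.6, 21.1 and 18.6 (Lin-), and Kcnn2 and Kcnn3 had no read in Lin-.

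Kcna3 (ENSMUSG00000047959.4, Kv1.3), the voltage-gated channel of lymphocytes, is annotated at chromosome 3, 107036169 to 107038070. It was at 832, 615 and 349.7 (Lym) versus 339, 274 and 258 (Lin-). Mouse 87 lay just above the highest Lin- mouse, and the other Lym mice well above it. The difference was 0.96 ± 0.31 (limma adjusted p = 0.434), 1.31 without Lym mouse 87 (adjusted p = 0.00966) and 0.68 without Lym mouse 62 (adjusted p = 0.844). DESeq2 on the recovered reads called it (adjusted p = 0.0376), and the authors' deposited table did not (adjusted p = 0.0902). The other 7 genes of the Kcna group were not expressed.

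An RNA gene just downstream of Kcna3 was likewise highest in Lym mice 62 and 63. AI504432, annotated as a lincRNA on the same strand, starts 1434 bases past the annotated end of Kcna3. It was at 2071, 1344 and 648 (Lym) versus 597, 766.5 and 448 (Lin-), with overlapping groups (1.04 ± 0.39, limma adjusted p = 0.452). With its reads added to those of Kcna3, an alternative chosen after seeing the data, the difference was 1.01 ± 0.35 (limma adjusted p = 0.447). Whether the RNA of this gene is part of the Kcna3 transcript was not tested.

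Kcnab2, a cytosolic beta subunit that binds Kcna channels and belongs to the aldo-keto reductases, was the most abundant member in both groups. It was at 3650, 3818 and 4516 (Lym) versus 4392, 4025 and 4727 (Lin-). The groups overlapped, with a difference of -0.14 ± 0.12 (limma adjusted p = 0.708). Per kilobase it stood at 573 ± 65.8 in Lym and 628 ± 50.4 in Lin-, above Kcna3 at 315 ± 127 and 153 ± 22.5 (SD, n = 3 each). Its relative Kcnab1 never exceeded 9.28, and Kcnab3 had no read. Nphp4, which overlaps Kcnab2 on the opposite strand, reached at most 81.9.

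**Figure D3:**
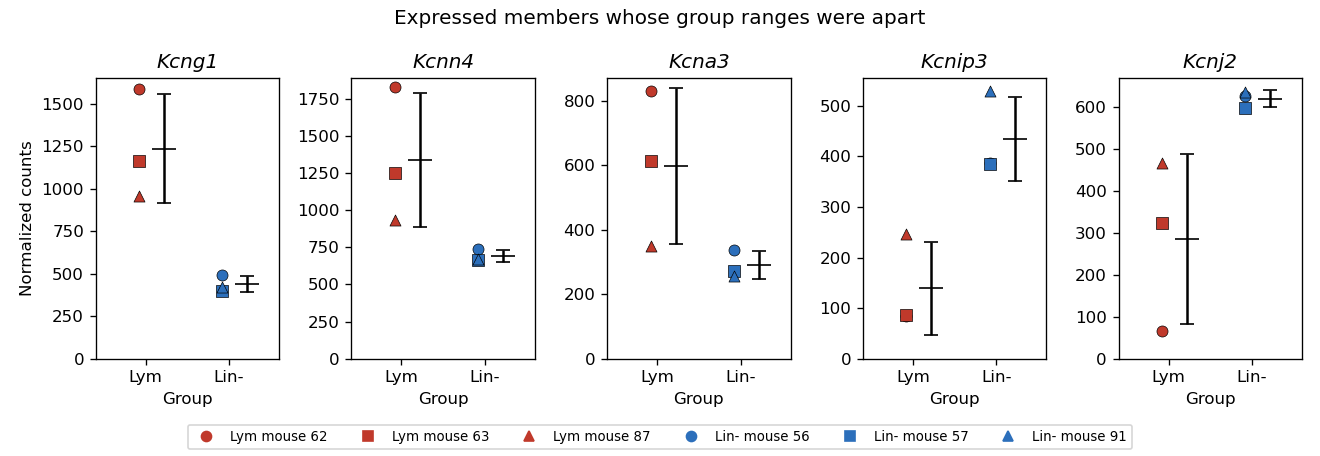
Normalized counts of Kcng1, Kcnn4, Kcna3, Kcnip3 and Kcnj2 by mouse, with the mean and SD of each group (n = 3) beside the points. Lym mouse 87 (red triangle) is the Lym mouse nearest to the Lin- mice in all 5 panels, and the groups do not overlap in any.

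Kcnip3 (ENSMUSG00000079056.12), a calcium-binding protein also known as DREAM or calsenilin, binds Kcnd channels and DNA. It lies on chromosome 2 at 127456498 to 127522094, minus strand. It was at 84.1, 87.3 and 246 (Lym) versus 387, 385 and 530.2 (Lin-). Lym mice 62 and 63 were nearly equal, and mouse 87 lay between them and the Lin- mice. Means were 139 ± 92.5 in Lym and 434 ± 83.3 in Lin- (SD, n = 3 each), 3.12 times as high in Lin-. The difference was -1.80 ± 0.41 (limma adjusted p = 0.420). It was -2.30 without Lym mouse 87 (adjusted p = 0.00221) and ranged from -2.30 to -1.53 when any 1 mouse was left out. DESeq2 on the recovered reads gave an adjusted p of 0.00297, and the authors' deposited table a shrunken log2 fold change of -1.16 with an adjusted p of 0.00716.

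The channel partners of Kcnip3 were not expressed in either group. Kcnd1 reached at most 2.24 and Kcnd2 at most 5.59, while Kcnd3 had 5.59 in Lym mouse 63, 8.58 in Lym mouse 87 and 0 in the other 4 libraries. Kcnip1, Kcnip2 and Kcnip4 stayed at or under 8.25. Pdyn, the opioid precursor gene that Kcnip3 is known to repress, had no read in any library. The adjacent gene Fahd2a, 11933 bases away on the same strand, did not follow Kcnip3 (218, 188 and 149.6 (Lym) versus 145.6, 233 and 183 (Lin-)).

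Kcnj2 (Kir2.1), the inward rectifier that holds the resting voltage in many cell types, lies on chromosome 11 at 111066164 to 111076821, plus strand, and varied widely among the Lym mice. It was at 65.0, 323 and 466 (Lym) versus 626, 597 and 634 (Lin-). The Lin- mice lay within a narrow band (619 ± 19.8, SD, n = 3), and every Lym mouse was below it, mouse 62 most of all. The difference was -1.52 ± 0.61 (limma adjusted p = 0.467). It was -2.07 without Lym mouse 87 (adjusted p = 0.0394) but -0.67 without Lym mouse 62 (adjusted p = 0.844), so its size rests largely on that library. Mouse 62 is also the library made from 1 ng of RNA, where the others were made from 2 ng. The same library was the highest for Kcng1, Kcnn4 and Kcna3 and the lowest for Kcnip3, and the part of RNA input in any of these was not tested. Neither DESeq2 (adjusted p = 0.674) nor the authors' deposited table (adjusted p = 0.964) called Kcnj2. Kcnj10, a glial and renal inward rectifier below the expression rule, also had ranges apart with Lin- higher, at 18.5, 9.68 and 22.7 against 7.85, 0 and 4.76 in Lym. Kcnj14, another inward rectifier under the rule, had reads in every library, at 10.1, 6.71 and 6.67 (Lym) versus 1.76, 10.6 and 2.06 (Lin-).

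The other expressed members described here had overlapping groups. Kcnq5, a pore of the M-current, was at 819, 734 and 658 (Lym) versus 634, 532 and 739.5 (Lin-) (0.22 ± 0.17, limma adjusted p = 0.657). Its usual partner Kcnq3 varied between mice within both groups, at 2.24, 39.2 and 7.62 against 9.70, 35.2 and 5.16. Mice 63 and 57 had the high values, 1 in each group. Among K2P background channels, Kcnk6 was at 376, 435 and 362 against 542, 441 and 321. Kcnk12, which forms no measurable channel alone, was at 232, 171 and 185 against 108.5, 184 and 112 (0.56 ± 0.29, limma adjusted p = 0.523). Kcnk13, a relative of Kcnk12 that fell under the rule, was at 7.85, 1.12 and 2.86 against 4.41, 5.28 and 10.3. Kcne3, a single-pass beta subunit, was at 119, 80.6 and 88.6 against 90.9, 110.0 and 83.5, and its partner Kcnq1 had reads in Lym mouse 87 alone.

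All members together came to 480.0, 442 and 447 CPM (reads of the gene scaled to a common library total) in Lym mice 62, 63 and 87 and to 437, 403 and 427.5 in Lin- mice 56, 57 and 91. The lowest Lym total lay only just above the highest Lin- total. Without Kcnab2, the most abundant member, the totals were 306, 258 and 225 (Lym) versus 215, 201 and 198 CPM (Lin-), again with the groups apart. Of the family's signal per kilobase, Kcna3, Kcng1 and Kcnn4 made up 15.6% ± 4.76, 13.7% ± 1.95 and 13.0% ± 2.87 in Lym and 9.20% ± 1.23, 5.85% ± 0.507 and 8.16% ± 0.371 in Lin- (SD, n = 3 each). Kcnip3 and Kcnj2 made up 2.08% ± 1.57 and 2.81% ± 2.15 in Lym and 7.39% ± 1.36 and 6.87% ± 0.0953 in Lin-. Kcnab2 led in both, with 29.4% ± 6.50 in Lym and 37.9% ± 2.42 in Lin-. Within each library the ratio of Kcng1 to Kcnip3 per kilobase was 14.9, 10.5 and 3.06 (Lym) versus 0.996, 0.821 and 0.624 (Lin-). Shares add to a whole, so a larger share of 1 member lowers the others, and both genes of the ratio were of interest from earlier results.

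**Figure D4:**
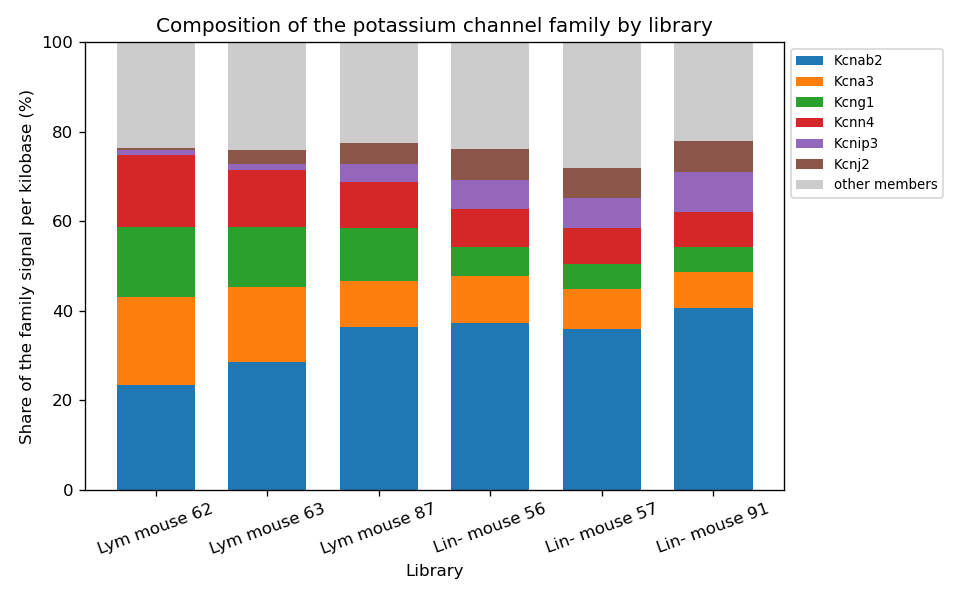
Share of the family's signal per kilobase (stacked to 100%) taken by 6 members and by all others, for each library. Kcnip3 (purple) and Kcnj2 (brown) are thin in Lym mice 62 and 63, and Lym mouse 87 is nearer to the 3 Lin- libraries at the right.

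Lym mouse 87 lay nearer to the other Lym mice for Kcng1 than for the other 4 members with groups apart. On the log2(normalized count + 2) scale it lay at 69.1% of the way from the Lin- mean to the mean of Lym mice 62 and 63 for Kcng1. The same distance was 38.8% for Kcnn4, 34.8% for Kcnip3, 21.3% for Kcna3 and 19.7% for Kcnj2. In fold terms Kcng1 was 2.19 times the Lin- mean in mouse 87 and 3.11 times in mice 62 and 63, and Kcnn4 1.35 and 2.19 times. These are values of 1 animal and carry no test.

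Genes that set the potassium gradient or assemble with the channels, from lists chosen beside the members, showed 0 limma calls among 20 tested. As limma called no gene at all, this does not set the lists apart. Of the sodium-potassium pump genes 4 of 8 were tested, with a median difference of -0.10 on the log2 scale. Of the cation chloride cotransporters 5 of 9 were tested and all 5 had higher means in Lym (median 0.20 on the log2 scale, none with an unadjusted p under 0.05). Slc12a9 was at 618, 848 and 506 against 400.5, 800.0 and 542.5. Of these 5 only Slc12a7 had groups apart, at 495, 415 and 534 against 360, 343 and 391. Over all tested genes 48.7% were higher in Lym, 8.49% had groups apart with Lym higher and 7.08% with Lin- higher. Among other potassium-permeable channels 5 of 13 were tested. Tmem38b, a counter-ion channel of internal calcium stores, was higher in every Lin- mouse, at 368, 512.5 and 615 against 728, 774 and 742 (-0.61 ± 0.20, limma adjusted p = 0.441). The lysosomal channel gene Tmem175 was at 428, 440 and 268 against 295, 436.5 and 271. Of the further channel partners 6 of 14 were tested, with a median difference of -0.23. The most abundant were the scaffold gene Akap9, at 14280, 12340 and 9727 against 9267, 11110 and 8797, and Calm2, at 8394, 7268 and 8861 against 8894, 7275 and 7713.

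Marker genes of other cell types moved with some of these results. Summed levels of the 5 mast and basophil markers came to 27.7 to 771 CPM in Lym and 11.3 to 19.9 in Lin-. Cpa3 was the larger part in the Lym libraries, at 15970, 3966 and 343 (Lym) versus 195.8, 147 and 6.19 (Lin-). Mcpt8 overlapped between groups, at 140.2, 209 and 194 (Lym) versus 176, 162 and 220 (Lin-), and Fcer1a was at 0 in all libraries. The 10 lymphoid markers came to 3.47 to 61.7 in Lym and 1.16 to 2.65 in Lin-. Of the 5 genes listed for progenitors (Kit, Cd34, Hoxa9, Meis1 and the general leukocyte gene Ptprc) the sums overlapped, at 2166 to 3178 in Lym and 1695 to 2248 in Lin-. Kit was at 18900, 12030 and 3158 (Lym) versus 4953, 6066 and 3420 (Lin-), so that Lym mice 62 and 63 lay above every Lin- mouse and mouse 87 below. Mouse 62 was highest in the mast and lymphoid lists and for Kit, as it was for Kcng1, Kcnn4 and Kcna3, and mouse 87 lowest of the Lym mice. The 5 endothelial markers came to 330 to 448 in Lym and 251 to 303 in Lin-, almost all of it Pecam1, which leukocytes also express. The macrophage list overlapped between groups (120 to 209 against 148 to 177 CPM), as did the megakaryocyte list (2.30 to 26.3 against 0.900 to 2.36). In the megakaryocyte list Gp1bb and Ppbp were at 0, and Pf4 and Gp9 reached at most 3.36. Itga2b of that list had groups apart, at 546, 218 and 46.7 (Lym) versus 45.9, 27.3 and 18.6 (Lin-) (2.56 ± 0.79, limma adjusted p = 0.426). The stromal list came to 33.2 to 199 in Lym and 22.4 to 35.9 in Lin-, mostly Pdgfrb. The T cell and mature B lists reached at most 6.57 and 2.08 in Lym and 0.446 and 0.250 in Lin-. The erythroid, neutrophil and neuron lists stayed under 3 CPM in every library, with Hbb-bs, Hba-a1 and Snap25 at 0. The part of the other lists in these results was not tested.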

How the data were processed

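Total RNA was sequenced from 3 Lym and 3 Lin- samples, 1 library per mouse. Per the labels' protocols, a stranded kit with 12 PCR cycles was used on 2 ng of RNA, except 1 ng in Lym mouse 62. Per the submitters' processing notes, the tools were bcl2fastq, DESeq2, featureCounts 1.6.4, STAR 2.6.1d and Trim Galore 0.6.4, and the build was GRCm38.p6. The strand setting is not given in the sources used here, so overlapping genes are uncertain. The deposited values are a normalized signal, which from the values themselves are gene counts, each library scaled by a size factor. All values up to 10000 were whole multiples of the library's step (100% within 0.01), so whole reads were recovered. Other columns, per the file headers, are a log2 fold change by the authors with a standard error, a Wald score and a p-value. Signs were turned to Lym minus Lin-.

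limma 3.58.1 (R 4.3.3, trend option) was run on log2(normalized count + 2), over 14273 genes with at least 10 in at least 3 libraries. edgeR 4.0.16, DESeq2 1.42.0 and limma-voom on the recovered reads were alternatives, and with TMM edgeR called 0 genes and DESeq2 203. All fits were tested on simulated data. Exact permutation of 3 against 3 mice cannot go below p = 0.1 and was not run. Per-kilobase levels use the deposited exon length. Of the members, 92 matched GENCODE M21 by ID and coordinates, and 71 had a RefSeq promoter. The members, lists and named genes were chosen with earlier results of these data known. The naming rule took Kcng1, Kcnip3, members called by any tool, members with groups apart and an unadjusted p under 0.05, the 15 highest by mean, the known partners of Kcng1 and Kcnip3, and members below the rule with at least 3 reads in every library of a group. From each list it took members meeting the same terms and the 2 most abundant. Further genes named were chosen after their values were seen, as were the promoter motifs. Tables and plots were made in Python 3.11.15 with pandas 2.3.3 and matplotlib 3.10.9. Some genes that the naming rule takes are not reported here.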

Additional observations from a re-analysis of the deposited data

How the results depend on the processing

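No paired analysis was possible because the 2 groups share no mouse numbers. The count of genes called, 0 in limma, became 203 with DESeq2, 5 without a filter on low values, 1 with a pseudocount of 10 and 660 with library weights, and ranged from 0 to 1348 when 1 mouse was left out. The highest count came without Lym mouse 87. The count of members called, also 0, became 4 with DESeq2 and 4 with library weights, and ranged from 0 to 5 when 1 mouse was left out, again highest without Lym mouse 87. Without a filter 79 members were tested, 9 had an unadjusted p under 0.05 (7.24% of all genes did) and 10 had groups apart (9.72%). With counts in place of counts per kilobase the share of Kcnab2 moved to 42.5% in Lym and 51.5% in Lin-, and that of Kcna3 to 6.27% and 3.42%. Kcng1 moved to 5.15% and Kcnip3 to 5.10% in Lin-. Kcng1, Kcnn4, Kcna3, Kcnip3, Kcnj2, Kcnk12, Kcnab2, Kcnq5 and Kcnn1 kept their direction under all alternatives run. Kcnk6 turned with library weights (0.062) and without Lin- mouse 56, in a leave-out range of -0.325 to 0.051. Kcng2 turned without Lym mouse 62, in a range of -0.088 to 0.501. Kcne3 turned with limma-voom (-0.003), with library weights (-0.067) and with Lym mouse 62, Lin- mouse 56 or Lin- mouse 91 left out, in a range of -0.153 to 0.122. The cause of these turns was not tested. Genes under 3 reads in a library cannot be ranked at this depth.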

Other observations

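Calcium entry and release genes, which supply the signal that opens Kcnn4 and is bound by Kcnip3, were mostly tested (18 of 20). They held 0 limma calls, but limma called no gene at all. Of the 18, 2 higher and 2 lower in Lym had an unadjusted limma p under 0.05, beside 5.96% and 4.27% of all tested genes. Groups were apart for 1 with Lym higher and 2 with Lin- higher, beside 8.49% and 7.08%. As many of the 18 had higher means in Lym as in Lin- (9 each, median -0.01 on the log2 scale). The store-operated pore gene Orai1 was at 607, 640.1 and 556 (Lym) versus 614, 627.5 and 645 (Lin-), and the sensor gene Stim1 at 1226, 1386 and 1318 against 1328, 1429 and 1359. The other sensor gene, Stim2, had groups apart with Lin- higher, at 1163, 1159 and 1104 against 1350, 1359 and 1491 (-0.29 ± 0.12, limma adjusted p = 0.467). The mechanically gated channel gene Piezo1 was at 3783, 3901 and 4526 against 4546, 3874 and 5074. The cation channel gene Trpm2 had groups apart with Lin- higher, at 380.2, 402 and 301 against 433, 616 and 701 (-0.67 ± 0.22, limma adjusted p = 0.443). Among the receptors that release stored calcium, Itpr1 had groups apart with Lym higher, at 6214, 6944 and 5701 against 4647, 5301 and 5189 (0.31 ± 0.12, limma adjusted p = 0.452). Itpr2 was at 1047, 759 and 208 against 207, 144 and 241, so that only Lym mice 62 and 63 stood above the Lin- mice.

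Of 5 genes ascribed to the control of Kcnn4, 4 were tested and none had an unadjusted limma p under 0.05. The most abundant were Trim27, at 2387, 2153 and 2627 (Lym) versus 2456, 2151 and 2584 (Lin-), and Mtmr6, at 1450, 1771 and 1445 against 2172, 1558 and 1572. Phpt1, a histidine phosphatase that inhibits the channel, had groups apart with Lym higher, as did 8.49% of all tested genes. Its values were 175, 217 and 166 (Lym) versus 128, 162 and 138 (Lin-) (0.37 ± 0.24, limma adjusted p = 0.590). Nme2, the histidine kinase that acts the opposite way, was at 101, 86.2 and 291 against 273.5, 197 and 234. Of 6 genes ascribed to Kcnip3 as partners or targets, 5 were tested and none had an unadjusted p under 0.05. The transcription factor gene Creb1 was the most abundant of these, at 4795, 3605 and 3401 against 3659, 3082 and 3058.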
